A study of Mus musculus with 16 samples.

Results

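Peroxisomes are followed here through 35 genes, of the 22206 annotated transcript clusters measured, which encode the machinery that builds the organelle and the enzymes and transporters that work inside it. The genes were picked by name and by what their proteins do, with earlier results of these data known. Every gene had 1 transcript cluster on the array, none of these was marked as cross-hybridising in the array's annotation, and the annotation placed the product of all 35 in the peroxisome, a label that 146 transcript clusters carried in all. RNA came from primary fibroblasts grown out of the tail skin of mice with mucopolysaccharidosis type I (MPS I), the lysosomal storage disease in which the gene Idua is defective, and was measured on Clariom S mouse arrays with 2 arrays labelled as biological replicates in each of 8 groups. Cells were treated for 24 h with 60 or 120 µM genistein (G, an isoflavone), with 60 or 120 µM kaempferol (K, a flavonol), or with a 1:1 mixture of both at 60 or 120 µM in total, which holds 30 or 60 µM of each. G and K share the flavonoid skeleton and differ in where the phenyl ring is attached and in an additional hydroxyl group of K. The controls received 0.05% or 0.1% dimethyl sulfoxide (DMSO), the solvent. Following the study's methods, G and K were set against 0.05% DMSO and the mixtures against 0.1% DMSO, although the labels give 0.05% DMSO for all treated cultures. All groups are MPS I cells and no healthy cells were analysed here, so every difference is between treatments of diseased cells. The donors were mice a few weeks old, and the methods mention more replicates than the 2 arrays analysed here. Nothing ties a replicate to a separate animal, so p-values measure the spread between these cultures.

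Peroxisomes shorten very long and branched fatty acids by beta- and alpha-oxidation, carry out the opening steps of ether lipid (plasmalogen) synthesis and destroy the hydrogen peroxide that their oxidases make. Their matrix enzymes are made in the cytosol and imported by peroxins, the proteins named PEX, whose receptors shuttle between cytosol and organelle. In rodent liver many of the oxidation enzymes are induced through the nuclear receptor PPARα, and skin fibroblasts are the cells in which inherited peroxisomal disorders are commonly studied.

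Values are log2 signals, on which a difference of 1 is a doubling, and "called" means an adjusted p under 0.05 in a limma fit of all 16 arrays, with the Benjamini-Hochberg adjustment across the 22206 transcript clusters. The 2 arrays of a group correlated at 0.9948 to 0.9972, the lowest in 0.1% DMSO. With 2 arrays a group, the arrays of unchanged genes also often fail to overlap. The share of all clusters that did so was not counted, so statements on overlap describe values and are no test. Of 10 fibroblast markers, 9 lay above the median of the negative control probes on every array, and Lum did not. All markers listed for epithelium (5), adipocytes (4) and Schwann cells (3) lay at or below that median on every array, and so did 3 of 4 for endothelium, 4 of 5 for leukocytes, 3 of 4 for melanocytes and 3 of 4 for skeletal muscle. The exceptions were Cd68, Mlana and Ckm, above it on every array, and an endothelial marker above it on some. Fibroblast markers were called lower with 120 µM G (6 of 10), 60 µM K (1, with 1 higher), 120 µM K (3) and the 60 and 120 µM mixtures (3 each). Of all clusters, 7.8%, 4.4%, 8%, 8.57% and 9.48% were called lower there, in this order. Of clusters above the median signal, 13.7%, 7.1%, 13%, 11.3% and 13.1% were, so the 1 marker with 60 µM K is near the background. Cd68, which macrophages and lysosomes carry, was 3.65-fold and 8.28-fold higher at 60 and 120 µM G. It was 1.62-fold higher with 60 µM K and 1.7-fold higher with the 60 µM mixture (limma, adjusted p 0.041 or below throughout). The summed linear signal of the fibroblast list ranged from 379434 to 568418 over the 16 arrays. In RNA of whole cultures, fewer cells of a kind and less RNA per cell cannot be told apart, and the part of these shifts in the results on peroxisomal genes was not tested. Idua had 1.1 to 1.29 times its control level over the 6 conditions and was called in none. Since all groups carry the defect, its signal checks no label.

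Of these 35 genes, more were called higher than lower with K and with the mixtures. With G few were called, and the log2 changes of 18 and 20 of the 35 were above 0 at 60 and 120 µM. Against their own controls more were called with K and with the mixtures than with G, but this order depended on the control: with the other DMSO group in its place, the numbers called at 60 and 120 µM were 0 and 9 for G, 9 and 9 for K, and 6 and 7 for the mixture. With 60 µM G, 3 of 35 genes rose and 0 fell, where 3.84% of all transcript clusters rose and 4.48% fell. With 120 µM G, 3 rose and 2 fell, against 7.94% and 7.8% of all clusters, shares close to that background. With 60 µM K, 8 rose and 0 fell (background 5.72% and 4.4%), and with 120 µM K, 7 rose and 0 fell (background 8.98% and 8%). Under some other settings 1 or 2 genes were called lower with 60 µM K and 1 with 120 µM K. With the 60 µM mixture 10 rose and 1 fell (background 9.23% and 8.57%), as did 10 and 1 with the 120 µM mixture (background 10.1% and 9.48%). Bright transcript clusters are called more often than dim ones, and 28 of the 35 genes lay above the median signal of all clusters. Among clusters above that median, 6.81% and 14.4% were called higher for G at 60 and 120 µM, 10.5% and 16.4% for K, and 16.6% and 18.4% for the mixture. The median log2 fold change of the 35 genes at 60 and 120 µM was 0.03 and 0.10 for G, 0.25 and 0.31 for K, and 0.18 and 0.23 for the mixture, while the median of all clusters stayed between −0.04 and 0.01. By size alone, a fold change above 1.3 or below 0.7 whatever its error, 7 and 9 of the 35 genes passed for G at 60 and 120 µM (all clusters 20.3% and 24%), 11 and 15 for K (19.2% and 25.3%) and 15 and 15 for the mixture (27.2% and 28.5%).

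**Figure D1:**
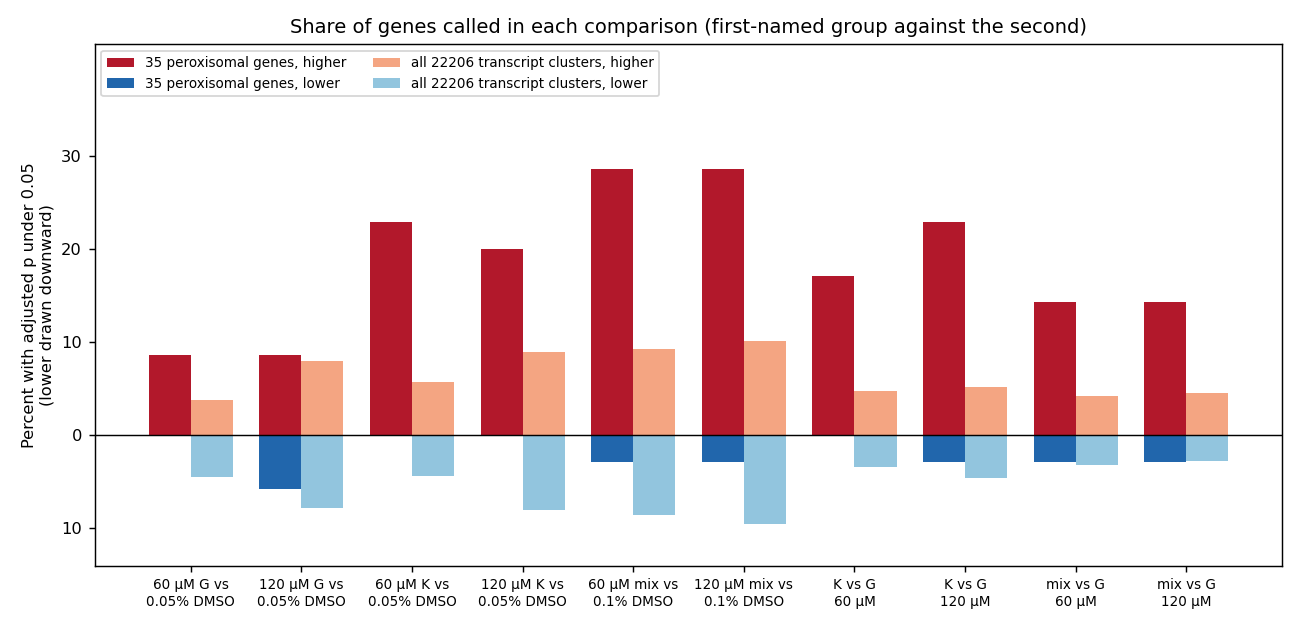
Percent of the 35 peroxisomal genes (dark bars, red for higher and blue for lower) and of all 22206 transcript clusters (pale bars) called at an adjusted p under 0.05, for the 6 conditions against their DMSO control and for K and the mixtures against G, with genes called higher in the group named in front of "vs" drawn upward and genes called lower drawn downward. With 60 µM K the bar for higher genes reaches 22.9% against 5.72% of all clusters, and with 120 µM G it is about level with that of all clusters, at 8.57% against 7.94%.

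These counts rested on 2 arrays a group and moved when 1 array was left out. With 60 µM G the count of 3 became 0 without replicate 1 of 0.05% DMSO or replicate 1 of 60 µM G and 1 without its replicate 2, and with 120 µM G the count of 5 became 3 without replicate 2 of 120 µM G. With 60 µM K the count of 8 became 1 or 2 when replicate 1 or 2 of 60 µM K was dropped and 2 or 1 when replicate 1 or 2 of 0.05% DMSO was, and with 120 µM K the count of 7 became 4 without the first 120 µM K array and 3 without replicate 1 of 0.05% DMSO. With the 60 µM mixture the count of 11 became 4 without replicate 2 of 0.1% DMSO or either 60 µM mixture array, and with the 120 µM mixture the count of 11 became 4 without replicate 2 of 0.1% DMSO and 6 or 5 without replicate 1 or 2 of the mixture. Of 45 calls of a gene in a condition, 10 stood whichever array of that comparison was left out. These were Cat in 4 conditions, Pex7 at 120 µM G and 120 µM K, Crot at 120 µM K, Acot8 and Agps at 120 µM G, and Acox2 with the 60 µM mixture. The 4 G and K conditions share the same 0.05% DMSO arrays and both mixtures share the 0.1% DMSO arrays, so calls in several conditions are not independent of each other.

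Of the 35 genes, 18 were called in at least 1 condition and 17 in none. Of the 18, 15 were called higher and 3 lower (Acox2, Agps and Amacr), and none was called in both directions. Pex7 was called in 6 conditions, Acaa1a in 5, Cat, Crot and Hsd17b4 in 4 each, and Acox3 and Paox in 3 each. A group in which both arrays lay at or below the median of the negative control probes was taken as not well above background. That median was 6.47 to 6.83 on the 16 arrays. By this rule 26 genes had no such group, and 1 array above the median was enough to pass. The median is a low bar. The 95th percentile of the negative control probes was 10.35 to 10.79, and 22.9% to 27.1% of all clusters exceeded it. Among the genes given a fold, Pex7, Acot8, Hacl1, Amacr and Abcd2 lay below that percentile on every array. Pex10, Pex26, Ehhadh and Far2 were not well above background in any group, and Pex11a, Acox2, Pecr, Abcd4 and Paox in some, so that these 9 get a bound or no fold change where it applies.

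**Figure D2:**
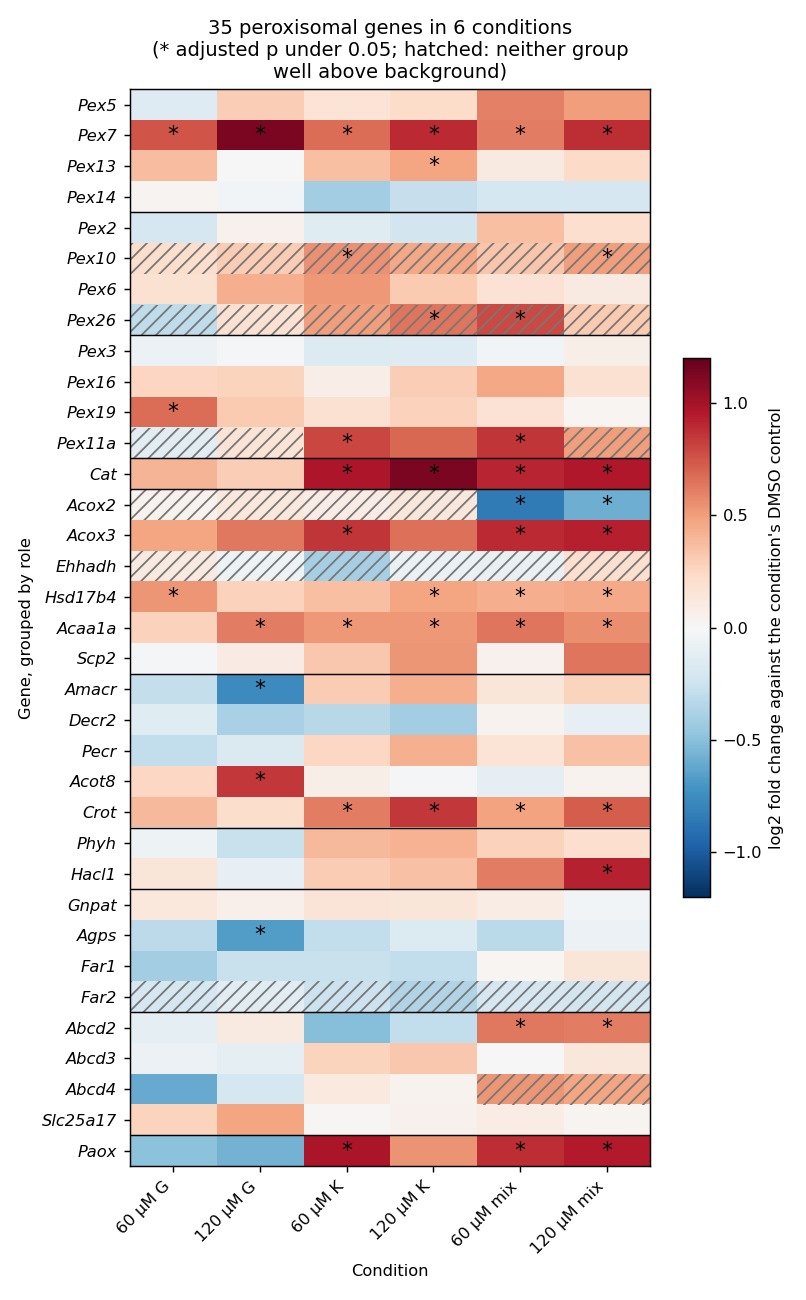
Log2 fold change of each of the 35 genes (vertical axis, grouped by role with black lines between the groups) in the 6 conditions (horizontal axis) against the condition's DMSO control, from red (higher in treated cells) to blue (lower), with a star for an adjusted p under 0.05 and hatching where neither group was well above background. Pex7 is red and starred in all 6 columns, Cat is starred in the K and mixture columns, and the blue starred cells are Amacr and Agps at 120 µM G and Acox2 in the mixtures.

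The sequence around the start of 3 genes that rose in several conditions is shown because their transcripts moved in the same direction: Cat, with the lowest adjusted p of all 35, Pex7, called in 6 conditions, and Acaa1a, called in 5. Each window runs from 250 bases before to 50 bases after the annotated start, is written 5′ to 3′ on the gene's strand, and comes from RefSeq (GRCm38.p6), whose promoters were matched for 29 of the 35 genes. Capitals mark CCAAT, the CCAAT box, and TGACNNNGC, the core of the antioxidant response element, on either strand, so that a match on the opposite strand appears as its reverse complement, ATTGG for CCAAT. The windows lie at chr2:103485104-103485403 (minus strand, 62.0% GC) for Cat, chr10:19907625-19907924 (minus strand, 44.0% GC) for Pex7 and chr9:119341044-119341343 (plus strand, 53.3% GC) for Acaa1a.
Cat: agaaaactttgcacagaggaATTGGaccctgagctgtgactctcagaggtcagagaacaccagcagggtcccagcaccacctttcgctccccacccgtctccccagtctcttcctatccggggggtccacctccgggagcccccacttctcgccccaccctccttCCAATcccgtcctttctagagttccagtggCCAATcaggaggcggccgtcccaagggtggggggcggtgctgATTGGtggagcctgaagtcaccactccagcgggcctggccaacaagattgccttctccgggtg
Pex7: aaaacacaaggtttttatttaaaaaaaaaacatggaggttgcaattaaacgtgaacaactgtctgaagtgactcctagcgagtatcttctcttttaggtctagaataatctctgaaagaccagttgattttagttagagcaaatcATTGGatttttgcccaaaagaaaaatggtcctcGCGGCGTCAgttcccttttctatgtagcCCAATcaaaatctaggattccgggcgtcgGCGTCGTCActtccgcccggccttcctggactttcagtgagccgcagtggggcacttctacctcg
Acaa1a: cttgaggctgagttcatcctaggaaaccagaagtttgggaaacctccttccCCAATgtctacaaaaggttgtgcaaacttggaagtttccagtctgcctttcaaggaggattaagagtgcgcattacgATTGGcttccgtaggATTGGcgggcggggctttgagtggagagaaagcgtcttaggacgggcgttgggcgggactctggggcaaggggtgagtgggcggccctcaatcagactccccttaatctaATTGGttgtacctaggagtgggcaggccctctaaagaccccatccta
Each window held 4 matches. Those of Cat and Acaa1a were all CCAAT, and Pex7 held 2 CCAAT and 2 TGACNNNGC. In Cat the matches on the gene's own strand began at −85 and −55 from the start. Over the 29 matched genes, 14 (48.3%) had a CCAAT in the window, against 41.1% of all genes in the table, and 4 (13.8%) had a TGACNNNGC, against 14.0%. The GC box GGGCGG stood in the windows of 24 of the 29 (82.8%), against 38.2% of all genes. The direct repeat bound by PPAR and RXR, AGGTCA followed after any 1 base by AGGTCA, stood in 0 of the 29 and 0.048% of all genes, its unit AGGTCA alone in Cat, Phyh and Scp2 (10.3%, against 18.1%), the E-box CACGTG in Gnpat (3.45%, against 8.09%), and TCACGTGA, the palindrome found near many lysosomal genes, in 0 (against 1.13%). All were searched on both strands. AGGTCA lies within the direct repeat and CACGTG within TCACGTGA, and a match describes letters and not a bound site.

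Of 4 genes for import receptors and their docking, Pex7 rose in every condition and Pex13 in 1. Pex7 encodes the receptor for enzymes with the N-terminal targeting signal, which include the ether lipid enzyme Agps, the alpha-oxidation enzyme Phyh and the thiolase Acaa1a. Its log2 signals were 8.95 and 8.43 with 60 µM G, 9.05 and 9.09 with 120 µM G, 8.73 and 8.49 with 60 µM K and 8.77 and 8.89 with 120 µM K, against 7.98 and 7.89 in 0.05% DMSO. They were 8.89 and 8.93 with the 60 µM mixture and 9.41 and 8.96 with the 120 µM mixture, against 8.29 and 8.31 in 0.1% DMSO. Every treated array lay above the arrays of its control, and the highest value was on an array of the 120 µM mixture. Pex7 rose 1.68-fold and 2.19-fold with 60 and 120 µM G, 1.59-fold and 1.86-fold with K, and 1.53-fold and 1.85-fold with the mixtures (SE 0.18 log2; limma, adjusted p 0.0007 at 120 µM G and at most 0.034 elsewhere). The 0.1% DMSO arrays were themselves above the 0.05% DMSO arrays, by 0.36 log2 (adjusted p = 0.58), and with 0.1% DMSO as the control the calls at 60 µM G, 60 µM K and 120 µM K were lost (adjusted p 0.24, 0.3 and 0.06). Leaving out 1 array ended the calls at 60 µM G, 60 µM K and both mixtures, with adjusted p up to 0.18 on dropping replicate 1 of 60 µM G, 0.22 on dropping replicate 1 of 60 µM K, 0.14 on dropping replicate 2 of the 60 µM mixture and 0.06 on dropping replicate 1 of the 120 µM mixture.

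Pex5, the receptor for the more common C-terminal signal, was called in no condition, with 0.901 to 1.52 times its control level and an adjusted p of 0.1 at lowest. Pex13 and Pex14 form the docking complex at the membrane. Pex13 had log2 signals of 10.40 and 10.39 with 120 µM K, against 9.96 and 9.89 in 0.05% DMSO, and rose 1.38-fold (adjusted p = 0.025). Its values were also above all control arrays with 60 µM G (10.36 and 10.24) and 60 µM K (10.38 and 10.19), without a call. With 120 µM G (9.94 and 9.90) they overlapped 0.05% DMSO, and with the 60 and 120 µM mixtures (9.99 and 10.15, and 10.11 and 10.27) they lay above 9.95 and 9.97 in 0.1% DMSO by 0.11 and 0.23 log2 without passing the test. The call at 120 µM K was lost without any 1 of the 4 arrays (adjusted p up to 0.13 on dropping replicate 2 of 0.05% DMSO). Pex14 had 0.748 to 1.02 times its control level and was called nowhere.

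Of 4 genes for the recycling of the receptors, 0 were called with G and 1 rose in each of the K and mixture conditions, always on signals not well above background. Pex2 and Pex10 encode members of the ubiquitin ligase that marks the receptor for extraction, Pex6 an ATPase that pulls it from the membrane, and Pex26 the protein that anchors this ATPase. Pex26 had log2 signals of 5.58 and 5.56 with 60 µM G, 6.22 and 5.89 with 120 µM G, 6.23 and 6.53 with 60 µM K and 6.59 and 6.44 with 120 µM K, against 5.70 and 6.05 in 0.05% DMSO. The mixtures gave 6.54 and 6.49 at 60 µM and 5.96 and 6.10 at 120 µM, against 5.86 and 5.58 in 0.1% DMSO. Arrays of 120 µM K and the 60 µM mixture lay above all arrays of their controls and were called (adjusted p = 0.02 and 0.0062), yet no group was well above background and no fold is given. These calls were lost when 1 array was left out, with adjusted p up to 0.18 on dropping replicate 1 of 0.05% DMSO and 0.063 on dropping replicate 2 of 0.1% DMSO. Pex10 was likewise called at 60 µM K and in the 120 µM mixture (adjusted p = 0.04 and 0.039, and up to 0.19 on dropping replicate 1 of 60 µM K and 0.32 on dropping replicate 2 of the 120 µM mixture) on log2 signals of 4.50 to 5.23, not well above background in any group, and with a spread that follows the signal neither call held. Pex2 and Pex6 were called in no condition, at 0.857 to 1.29 and 1.08 to 1.43 times their control level.

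Of 4 genes for inserting membrane proteins and for division, 1 rose with 60 µM G, 60 µM K and the 60 µM mixture and 0 in the 120 µM conditions. Pex19, the chaperone that carries membrane proteins to the peroxisome, had log2 signals of 13.32 and 13.25 with 60 µM G, 12.92 and 12.94 with 120 µM G, 12.82 and 12.78 with 60 µM K and 13.10 and 12.69 with 120 µM K, against 12.39 and 12.84 in 0.05% DMSO. Values with the mixtures were 13.03 and 12.81 at 60 µM and 12.63 and 12.90 at 120 µM, against 12.80 and 12.68 in 0.1% DMSO. The 60 µM G arrays were the highest of all 16, and Pex19 rose 1.59-fold there (adjusted p = 0.036, 0.25 on dropping replicate 1 of 0.05% DMSO, and 0.08 against 0.1% DMSO), while the arrays of K overlapped those of the control, which lay 0.45 log2 apart. Pex11a, which elongates peroxisomes before they divide, had 6.83 and 6.73 with 60 µM K and 6.43 and 6.90 with 120 µM K, and 5.88 and 5.80 with 60 µM G and 6.42 and 5.85 with 120 µM G, against 6.10 and 5.85 in 0.05% DMSO. It had 6.71 and 6.76 with the 60 µM mixture and 6.62 and 6.13 with the 120 µM mixture, against 5.62 and 6.13 in 0.1% DMSO. Both arrays of 60 µM K and of the 60 µM mixture exceeded all control arrays, whose groups were not well above background, so the rise was at least 1.17-fold with 60 µM K and at least 1.15-fold with the 60 µM mixture (adjusted p = 0.042 and 0.02). Both calls were lost without 1 array, with adjusted p up to 0.23 on dropping replicate 2 of 0.05% DMSO and 0.15 on dropping replicate 1 of 0.1% DMSO. Pex3 and Pex16, which receive Pex19 and start new peroxisomal membrane, were called nowhere. Pex3 had 0.89 to 1.05 times its control level and Pex16 1.06 to 1.38 times.

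Cat, which encodes catalase, the enzyme that splits hydrogen peroxide into water and oxygen, had the lowest adjusted p of the 35 genes. Its log2 signal was 15.72 and 15.66 with 60 µM G, 15.49 and 15.67 with 120 µM G, 16.20 and 16.30 with 60 µM K and 16.47 and 16.37 with 120 µM K, against 15.17 and 15.40 in 0.05% DMSO. With the mixture it was 16.39 and 16.30 at 60 µM and 16.36 and 16.42 at 120 µM, against 15.47 and 15.40 in 0.1% DMSO. The K and mixture arrays lay at 16.2 or above, and the G arrays, from 15.49 to 15.72, lay just above the control arrays, which reached 15.47. Cat rose 1.95-fold and 2.19-fold with 60 and 120 µM K and 1.88-fold and 1.94-fold with the 60 and 120 µM mixtures (SE 0.13 log2; adjusted p = 0.00035, 4.6e-05, 0.00039 and 0.0002). With 60 and 120 µM G the changes of 1.32-fold and 1.23-fold were not called (adjusted p = 0.081 and 0.18). No G array overlapped the 0.05% DMSO arrays, which with 2 arrays a group is no test. The 4 calls held without any 1 array of their comparison, with an adjusted p of 0.0073 at highest.

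**Figure D3:**
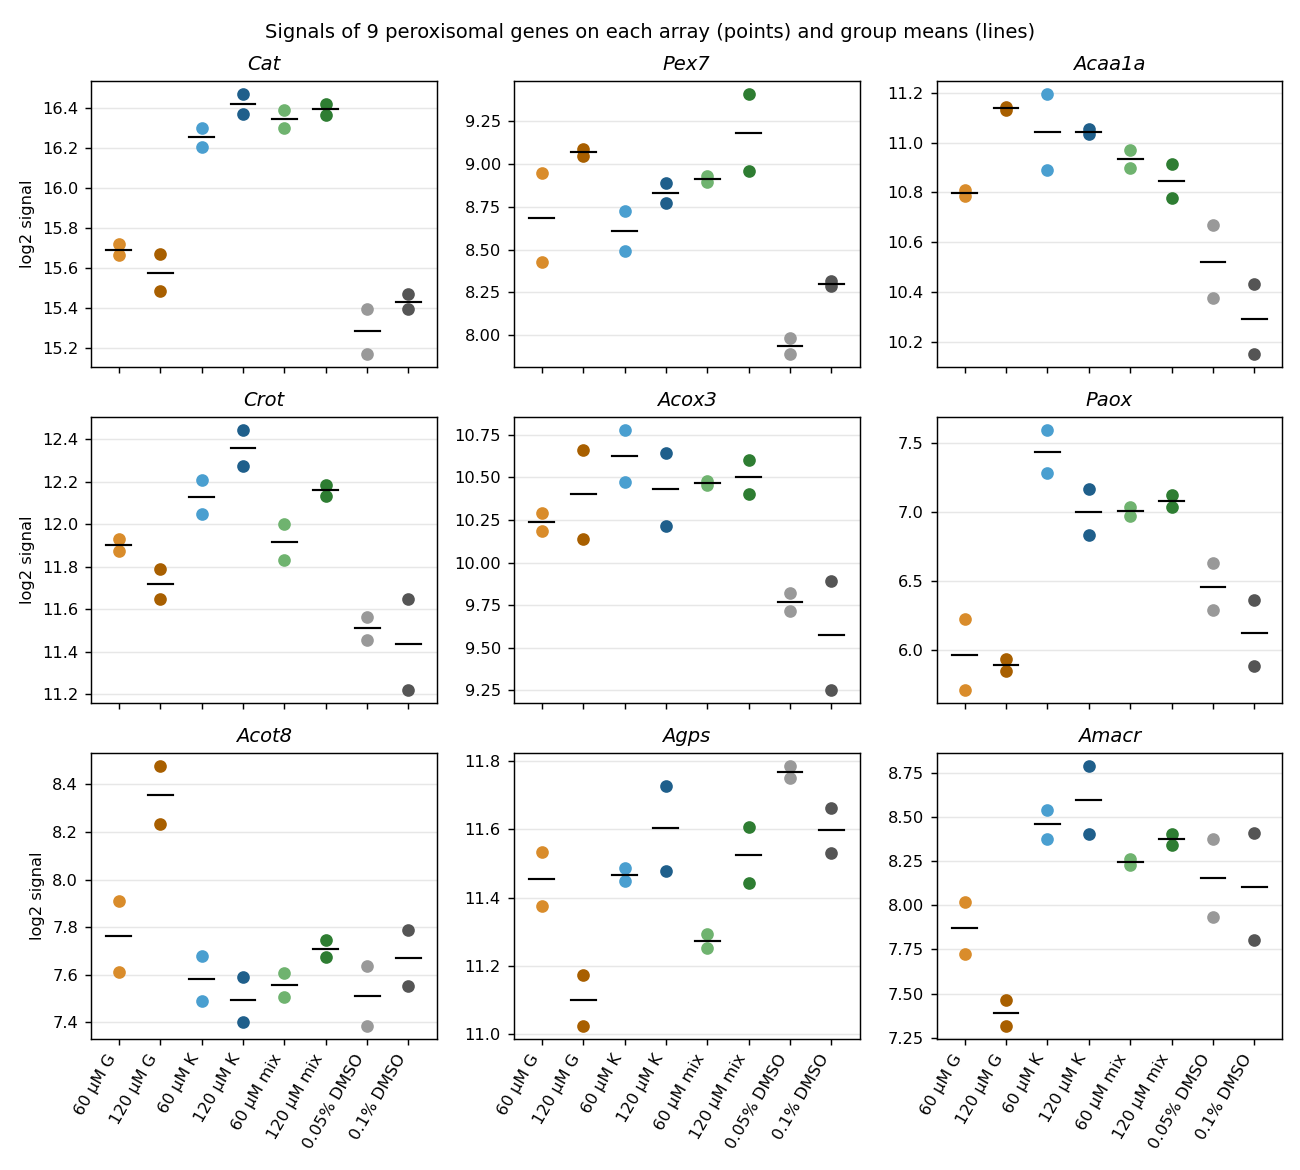
Log2 signal (vertical axis, scaled for each gene) of 9 peroxisomal genes on each of the 16 arrays (points) with group means (lines), for cells given 60 or 120 µM G, K or the 1:1 mixture and for the 0.05% and 0.1% DMSO controls. Cat lies at 16.2 or above on all K and mixture arrays and at 15.72 or below on all others. Acot8 is high and Agps and Amacr are low at 120 µM G. Paox has its lowest group means with G, where the arrays overlap those of 0.1% DMSO.

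Of 6 beta-oxidation genes, 1 rose with 60 µM G and 1 with 120 µM G, 2 with each K concentration, and 3 with each mixture, where 1 fell. Set directly against G, 0 of the 6 were called higher with K or a mixture at either concentration, and 1, Acox2, was lower with the 60 µM mixture. Acaa1a, the thiolase that ends each cycle, had log2 signals of 10.79 and 10.81 with 60 µM G, 11.13 and 11.14 with 120 µM G, 11.20 and 10.89 with 60 µM K and 11.05 and 11.03 with 120 µM K, against 10.38 and 10.67 in 0.05% DMSO. It had 10.97 and 10.90 with the 60 µM mixture and 10.78 and 10.91 with the 120 µM mixture, against 10.15 and 10.43 in 0.1% DMSO. Every treated array exceeded both arrays of its control. Acaa1a rose 1.53-fold with 120 µM G, 1.44-fold and 1.43-fold with 60 and 120 µM K, and 1.56-fold and 1.47-fold with the mixtures (adjusted p 0.011 to 0.046). With 60 µM G the 1.21-fold difference was not called. Each call was lost without 1 array, with adjusted p up to 0.13 on dropping replicate 1 of 0.05% DMSO, 0.33 on dropping replicate 1 of 60 µM K, 0.23 on dropping replicate 1 of 0.05% DMSO, 0.081 on dropping replicate 1 of 0.1% DMSO and 0.14 on dropping replicate 2 of the 120 µM mixture, and against 0.05% DMSO the mixtures were not called (adjusted p 0.11 and 0.19). Acaa1a has a near-identical neighbour, Acaa1b, and probes may not tell both apart fully. Acaa1b itself was called in no condition (1.03 to 1.46 times control).

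Acox3 and Acox2 encode oxidases of branched substrates that make hydrogen peroxide. Acox3 had 10.29 and 10.18 with 60 µM G, 10.14 and 10.66 with 120 µM G, 10.48 and 10.78 with 60 µM K and 10.65 and 10.21 with 120 µM K, against 9.72 and 9.82 in 0.05% DMSO, as log2 signals. It had 10.48 and 10.46 with the 60 µM mixture and 10.40 and 10.60 with the 120 µM mixture, against 9.89 and 9.25 in 0.1% DMSO. No treated array overlapped its control, but the 0.1% DMSO arrays lay 0.64 log2 apart. Acox3 rose 1.81-fold with 60 µM K and 1.86-fold and 1.9-fold with the mixtures (adjusted p = 0.026, 0.014 and 0.0099), and the calls were lost without 1 array, with adjusted p up to 0.18 on dropping replicate 2 of 60 µM K, 0.15 on dropping replicate 2 of 0.1% DMSO and 0.12 on dropping replicate 2 of 0.1% DMSO, while against 0.05% DMSO the 60 µM mixture had an adjusted p of 0.059. At 120 µM G and 120 µM K the differences of 1.55-fold and 1.58-fold missed the threshold (adjusted p = 0.076 and 0.06).

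Acox2, which acts on bile acid intermediates, was the gene of this group that fell. Its log2 signals were 5.69 and 5.70 with the 60 µM mixture and 5.88 and 6.01 with the 120 µM mixture, against 6.60 and 6.48 in 0.1% DMSO. With 60 and 120 µM G they were 6.34 and 6.05, and 6.39 and 6.17, and with 60 and 120 µM K 6.18 and 6.31, and 6.34 and 6.24, against 6.16 and 6.15 in 0.05% DMSO. The mixture arrays lay below all control arrays, and Acox2 fell with both (adjusted p = 0.0011 and 0.0099). Only the 0.1% DMSO group was above background, and barely, so no size of the change is given, and these calls were lost against 0.05% DMSO (adjusted p 0.051 and 0.41). The call at 120 µM was also lost without 1 array (adjusted p up to 0.084 on dropping replicate 1 of the 120 µM mixture). Hsd17b4, which catalyses both middle steps of the cycle, had log2 signals of 12.4 to 13.1 and rose 1.45-fold with 60 µM G, 1.38-fold with 120 µM K and 1.35-fold and 1.37-fold with the mixtures (adjusted p 0.025 to 0.037). Its calls were lost without 1 array, with adjusted p up to 0.15 on dropping replicate 1 of 0.05% DMSO, 0.16 on dropping replicate 1 of 0.05% DMSO, 0.2 on dropping replicate 2 of 0.1% DMSO and 0.17 on dropping replicate 1 of the 120 µM mixture, and those of 60 µM G and 120 µM K missed the threshold against 0.1% DMSO (adjusted p 0.053 and 0.063). Ehhadh, the other bifunctional enzyme, was not well above background in any group, and Scp2, a thiolase and sterol carrier, was called nowhere (0.992 to 1.56 times control, adjusted p = 0.06 at lowest).

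Of 5 auxiliary enzymes of fatty acid breakdown, 0 were called with 60 µM G, 1 rose and 1 fell with 120 µM G, and 1, Crot, rose in each K and mixture condition. Crot, which attaches carnitine to the shortened chains for export to mitochondria, had log2 signals of 11.93 and 11.88 with 60 µM G, 11.79 and 11.65 with 120 µM G, 12.05 and 12.21 with 60 µM K and 12.28 and 12.44 with 120 µM K, against 11.57 and 11.46 in 0.05% DMSO. It had 11.83 and 12.00 with the 60 µM mixture and 12.14 and 12.19 with the 120 µM mixture, against 11.65 and 11.22 in 0.1% DMSO. All treated arrays lay above their controls, and those of 120 µM K were highest. Crot rose 1.53-fold and 1.8-fold with 60 and 120 µM K and 1.4-fold and 1.65-fold with the 60 and 120 µM mixtures (SE 0.16 log2; adjusted p = 0.021, 0.0016, 0.047 and 0.0048). Except at 120 µM K, the calls were lost without 1 array, with adjusted p up to 0.15 on dropping replicate 2 of 60 µM K, 0.36 on dropping replicate 2 of 0.1% DMSO and 0.062 on dropping replicate 2 of 0.1% DMSO, and that of the 60 µM mixture was lost against 0.05% DMSO (adjusted p 0.12).

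Acot8 and Amacr changed with the higher concentration of G and in opposite directions. Acot8, a thioesterase that releases fatty acids from coenzyme A, had log2 signals of 7.91 and 7.61 with 60 µM G and 8.48 and 8.23 with 120 µM G, against 7.39 and 7.64 in 0.05% DMSO. The arrays of 120 µM G stood above all other arrays, which lay between 7.39 and 7.91. Acot8 rose 1.8-fold (SE 0.16 log2; adjusted p = 0.0024, and at most 0.035 without 1 array). It had 7.49 and 7.68 with 60 µM K, 7.40 and 7.59 with 120 µM K, 7.51 and 7.61 with the 60 µM mixture and 7.75 and 7.68 with the 120 µM mixture, against 7.55 and 7.79 in 0.1% DMSO for the mixtures, and these groups overlapped their controls. Amacr, the racemase that turns branched fatty acids into the form the oxidases accept, had 7.72 and 8.02 with 60 µM G and 7.46 and 7.32 with 120 µM G, against 7.93 and 8.38 in 0.05% DMSO. The 120 µM G arrays were below all others, and Amacr fell to 0.589 of control (adjusted p = 0.024, and up to 0.22 on dropping replicate 2 of 0.05% DMSO). With 60 and 120 µM K it had 8.54 and 8.37, and 8.40 and 8.79, and with the 60 and 120 µM mixtures 8.23 and 8.26, and 8.34 and 8.41, against 7.80 and 8.41 in 0.1% DMSO, without a call. Decr2 and Pecr, reductases for unsaturated chains, were called in no condition (0.749 to 1.03 times control for Decr2, whose lowest adjusted p was 0.071).

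Of 2 genes of alpha-oxidation, 1 rose with the 120 µM mixture and 0 were called elsewhere. The pathway trims branched phytanic acid by a carbon before beta-oxidation. Hacl1, its lyase, had log2 signals of 9.86 and 9.66 with the 60 µM mixture and 9.89 and 10.27 with the 120 µM mixture, against 9.51 and 8.79 in 0.1% DMSO. The highest arrays were those of the 120 µM mixture, and the 0.1% DMSO arrays lay 0.71 log2 apart. Hacl1 rose 1.9-fold with the 120 µM mixture (adjusted p = 0.0099, and up to 0.12 on dropping replicate 2 of 0.1% DMSO). It had 9.54 and 9.11 with 60 µM G, 8.99 and 9.17 with 120 µM G, 9.49 and 9.48 with 60 µM K and 9.39 and 9.68 with 120 µM K, against 9.13 and 9.23 in 0.05% DMSO. These arrays overlapped the control with G and lay above it with K, without a call. Phyh, the hydroxylase whose loss causes Refsum disease, was called in no condition against DMSO (0.831 to 1.34 times control, adjusted p = 0.076 at lowest).

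Of 4 genes of ether lipid synthesis, 1 fell with 120 µM G and 0 were called in the other conditions. Agps, which forms the ether bond, had log2 signals of 11.53 and 11.38 with 60 µM G, 11.03 and 11.17 with 120 µM G, 11.45 and 11.49 with 60 µM K and 11.48 and 11.73 with 120 µM K, against 11.75 and 11.79 in 0.05% DMSO. It had 11.30 and 11.25 with the 60 µM mixture and 11.61 and 11.44 with the 120 µM mixture, against 11.66 and 11.53 in 0.1% DMSO. All G and K arrays lay below the 0.05% DMSO arrays, and those of 120 µM G were lowest. Agps fell to 0.629 of control with 120 µM G (SE 0.14 log2; adjusted p = 0.0041, and at most 0.044 without 1 array), and the other conditions, at 0.8 to 0.952 times control, were not called. Gnpat, which adds the acyl chain that Agps replaces, had 0.977 to 1.11 times its control level, and Far1, which supplies the fatty alcohol, 0.747 to 1.11 times. Neither was called, and Far2 was not well above background in any group.

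Of 4 transporters in the peroxisomal membrane, 1, Abcd2, rose with each mixture and 0 were called with G or K. Abcd2 imports very long chain acyl-CoA. Its log2 signals were 8.42 and 8.35 with the 60 µM mixture and 8.31 and 8.43 with the 120 µM mixture, against 8.00 and 7.49 in 0.1% DMSO. With 60 and 120 µM G they were 8.22 and 7.99, and 8.50 and 8.14, and with 60 and 120 µM K 7.78 and 7.64, and 7.86 and 7.99, against 8.17 and 8.26 in 0.05% DMSO. The mixture arrays lay above both 0.1% DMSO arrays, G overlapped 0.05% DMSO and K lay below it. Abcd2 rose 1.55-fold and 1.54-fold with the mixtures (adjusted p = 0.025 and 0.026). The 0.1% DMSO control was itself at 0.723 times the level of 0.05% DMSO (adjusted p = 0.45). Against 0.05% DMSO the adjusted p was 0.64 and 0.66, and without replicate 2 of 0.1% DMSO it was 0.23 and 0.25. Abcd3 and Abcd4, further ABC transporters, and Slc25a17, the carrier of coenzyme A and other nucleotides, were called in no condition (0.926 to 1.25 times control for Abcd3 and 1.01 to 1.39 times for Slc25a17).

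Paox, the oxidase of acetylated polyamines, which also makes hydrogen peroxide, had higher signals with K than with G. Its log2 signals were 7.59 and 7.28 with 60 µM K and 6.83 and 7.17 with 120 µM K, and 6.22 and 5.71 with 60 µM G and 5.84 and 5.93 with 120 µM G, against 6.63 and 6.29 in 0.05% DMSO. They were 6.97 and 7.04 with the 60 µM mixture and 7.12 and 7.03 with the 120 µM mixture, against 6.36 and 5.88 in 0.1% DMSO. All K and mixture arrays lay above and all G arrays below the arrays of their own control. Both G groups were not well above background, and neither was called lower. Paox rose 1.97-fold with 60 µM K (SE 0.21 log2; adjusted p = 0.0079). With the mixtures, whose control was not well above background, it rose at least 1.39-fold at 60 µM and at least 1.46-fold at 120 µM (adjusted p = 0.0099 and 0.0054). With 120 µM K, at 1.46-fold, and with 60 and 120 µM G the adjusted p was 0.099, 0.18 and 0.087. The calls were lost without 1 array, with adjusted p up to 0.092 on dropping replicate 1 of 60 µM K, 0.11 on dropping replicate 2 of 0.1% DMSO and 0.068 on dropping replicate 2 of 0.1% DMSO, and both mixture calls were lost against 0.05% DMSO (adjusted p 0.11 and 0.06).

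K and the mixtures were then set directly against G at the same total concentration. At both concentrations Cat, Pecr and Paox had a higher signal in K-treated than in G-treated cells. At 60 µM, 6 of the 35 genes were higher with K than with G and 0 lower, where 4.78% of all clusters were higher and 3.39% lower, and at 120 µM 8 were higher and 1 lower (background 5.21% and 4.57%). The 60 µM mixture exceeded 60 µM G for 5 genes and lay below it for 1 (background 4.18% and 3.17%), and the 120 µM mixture exceeded 120 µM G for 5 and lay below it for 1 (background 4.53% and 2.8%). By size alone 9 and 14 genes passed for K against G at 60 and 120 µM (all clusters 19.6% and 19.4%) and 7 and 10 for the mixture against G (19.8% and 16.1%). K and the mixture share the G arrays in these comparisons. Leaving out 1 array changed the counts: 60 µM K against 60 µM G gave 1 without either G array and 2 or 1 without replicate 1 or 2 of K, and 120 µM K against 120 µM G gave 4 or 5 without replicate 1 or 2 of G and 5 without replicate 2 of K. The 60 µM mixture against 60 µM G gave 3 or 1 without replicate 1 or 2 of G and 1 without either mixture array, and the 120 µM mixture against 120 µM G gave 3 without either G array and 3 or 2 without replicate 1 or 2 of the mixture. Of 27 calls between treated groups, 8 stood whichever array was left out. For K against G these were Paox at 60 µM and Cat, Paox, Amacr and Acot8 at 120 µM, and for the mixture against G they were Pex26 at 60 µM and Cat and Paox at 120 µM.

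Cat was 1.47-fold higher with 60 µM K than with 60 µM G (95% interval of the log2 difference 0.27 to 0.85, adjusted p = 0.021) and 1.79-fold higher at 120 µM (0.55 to 1.13, adjusted p = 0.0011). Paox, not well above background with G, was at least 1.63-fold and at least 1.21-fold higher with 60 and 120 µM K (adjusted p = 0.00072 and 0.0036). Pecr, a reductase for trans-unsaturated acyl chains, was at least 1.16-fold and at least 1.31-fold higher with 60 and 120 µM K (adjusted p = 0.045 and 0.025), on log2 signals of 6.93 and 6.94 with 60 µM K and 7.32 and 6.90 with 120 µM K, against 6.36 and 6.42 with 60 µM G and 6.58 and 6.44 with 120 µM G. Its arrays did not overlap at either concentration. Pecr depended on how the spread was estimated, since none of its calls against G held with a spread that follows the signal. Against G, the mixtures gave Cat 1.57-fold and 1.76-fold higher, Paox at least 1.21-fold and 1.28-fold higher, and Pecr at least 1.16-fold and 1.33-fold higher at 60 and 120 µM (adjusted p 0.0017 to 0.045). Among these, the 60 µM calls of Cat were lost without 1 array (adjusted p up to 0.13 on dropping replicate 2 of 60 µM K for K and 0.081 on dropping replicate 1 of the 60 µM mixture for the mixture), and so was that of Paox with the 60 µM mixture (0.1 on dropping replicate 2 of 60 µM G). All 4 Pecr calls against G were lost likewise, with adjusted p up to 0.17 on dropping replicate 1 of 60 µM K, 0.22 on dropping replicate 1 of 120 µM K, 0.22 on dropping replicate 1 of the 60 µM mixture and 0.19 on dropping replicate 1 of the 120 µM mixture.

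Further genes separated K from G at 1 concentration. At 60 µM these were Pex26, Pex11a and Abcd4, all at the edge of background (adjusted p = 0.012, 0.025 and 0.044). At 120 µM, Amacr was 2.3-fold, Phyh 1.61-fold, Crot 1.56-fold, Agps 1.42-fold and Pex13 1.39-fold higher with K than with G, and Acot8 was 0.55 times the level with G (adjusted p 0.0021 to 0.036). Without 1 array, that of Phyh reached an adjusted p of 0.09 on dropping replicate 1 of 120 µM G, of Crot 0.11 on dropping replicate 2 of 120 µM G, of Agps 0.2 on dropping replicate 1 of 120 µM G and of Pex13 0.15 on dropping replicate 2 of 120 µM G. Amacr and Hacl1 were 1.97-fold and 1.99-fold higher and Acot8 0.639 times as high with the 120 µM mixture as with 120 µM G (adjusted p = 0.01, 0.014 and 0.026), and without 1 array their adjusted p reached 0.084 on dropping replicate 2 of 120 µM G, 0.15 on dropping replicate 2 of the 120 µM mixture and 0.19 on dropping replicate 1 of 120 µM G. With the 60 µM mixture Pex26 and Pex11a were higher and Acox2 lower than with 60 µM G, again on dim signals (adjusted p = 0.0055, 0.033 and 0.049). Pex7, the gene called in 6 conditions, was not called between K and G, and the 95% intervals of its log2 difference were -0.47 to 0.32 at 60 µM and -0.63 to 0.16 at 120 µM. For Acaa1a they were -0.09 to 0.58 and -0.42 to 0.24, and for Hsd17b4 -0.46 to 0.11 and -0.09 to 0.48, and within these intervals no difference was detectable with 2 arrays a group.

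**Figure D4:**
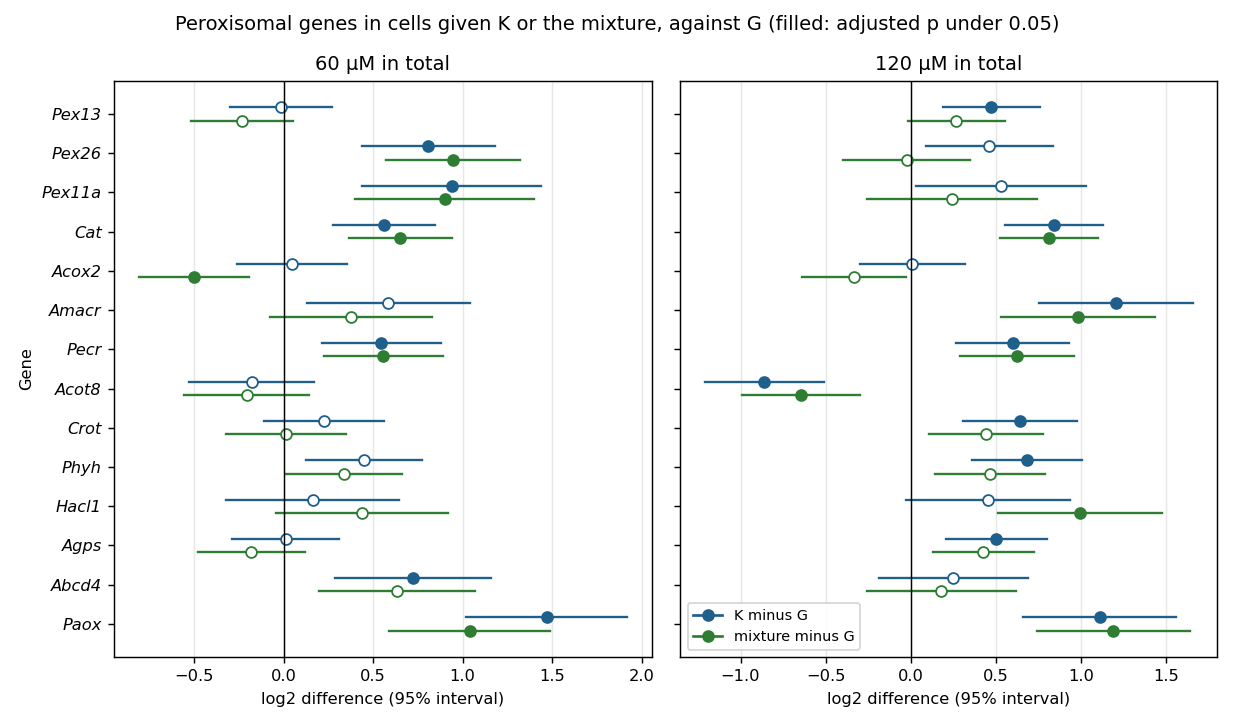
Log2 difference with its 95% interval (horizontal axis) for the 14 genes called in at least 1 comparison with G (vertical axis), for K minus G (blue) and mixture minus G (green) at 60 µM in total (left panel) and at 120 µM (right panel), with filled points for an adjusted p under 0.05. Cat, Pecr and Paox have filled points right of 0 in both panels, Acot8 has filled points left of 0 at 120 µM, and Pex26, Pex11a, Acox2, Pecr, Abcd4 and Paox include groups not well above background.

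The step between 60 and 120 µM and the exchange of K for the mixture gave no call among the 35 genes in the limma fit. Background shares beside the calls are at an adjusted p under 0.05. The share of all clusters with an unadjusted p under 0.05 was not counted, so numbers of genes at that threshold have no background here. Between 120 and 60 µM G, 0 genes were called, where 3.54% of all clusters were called, and 6 had an unadjusted p under 0.05. These were Acot8 and Acaa1a, 1.51-fold and 1.27-fold higher at 120 µM, Pex26, and Amacr, Pex13 and Agps, at 0.717, 0.769 and 0.782 times the 60 µM level (adjusted p from 0.063 for Acot8 upward). Between 120 and 60 µM K, 0 were called and 0 had an unadjusted p under 0.05 (background 0.27%), and between the 120 and 60 µM mixtures 0 were called and 2 had one, Pex26 and Scp2 (background 0%). The 60 µM mixture and 60 µM K differed for 0 genes, with 2 at an unadjusted p under 0.05, Acox2 and Abcd2 (background 0.0901%). The 120 µM mixture and 120 µM K differed for 0, with 5, namely Pex26, Pex16, Acox2, Hacl1 and Abcd2 (background 0.684%). Of these, Abcd2 was 1.6-fold and 1.36-fold higher with the 60 and 120 µM mixtures than with K (adjusted p = 0.25 and 0.34). By size alone 5 genes passed between 120 and 60 µM G (all clusters 15.4%), 0 for K (9.06%), 1 for the mixture (4.68%), and 2 and 2 for the mixture against K at 60 and 120 µM (7.35% and 10.5%). Tests of whether the step in concentration differed between G, K and the mixture, 105 over the 35 genes, gave 0 calls and 7 with an unadjusted p under 0.05. The lowest was that of Pex26 for the mixture against G (limma, adjusted p = 0.13). Over these genes the standard error of a log2 difference had a median of 0.166, and the 95% interval a median reach of 0.357 to either side.

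The solvent controls differed in none of the 35 genes by the limma fit. Between 0.1% and 0.05% DMSO, 0 genes were called, where 0.0045% of clusters were called, and by size alone 1 gene passed (all clusters 9.34%). An unadjusted p under 0.05 was reached by 3 genes, a threshold at which all clusters were not counted. The 3 were Acox2, Abcd2 and Abcd4, of which Acox2 and Abcd2 were called with the mixtures. With both DMSO groups pooled as the control, 42 of the 45 calls against DMSO stood and 3 were lost, Pex7 at 60 µM K and Abcd2 with both mixtures. With the other DMSO group as the control 29 stood and 16 were lost, among them all 3 of 60 µM G.

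Peroxisomal genes outside the 35 gave other counts, with G and K above all. Of 43, 3 rose and 4 fell with 60 µM G and 2 and 4 with 120 µM G (all clusters 3.84% and 4.48%, then 7.94% and 7.8%). With 60 µM K, 2 rose and 0 fell, and with 120 µM K 3 and 2 (all clusters 5.72% and 4.4%, then 8.98% and 8%). The 60 µM mixture gave 7 and 1 and the 120 µM mixture 6 and 3 (all clusters 9.23% and 8.57%, then 10.1% and 9.48%). With G the numbers that rose and fell lay close together, and counts this small in a list of 43 are no result about the list. The 2 genes called with 60 µM K were 4.65% of the list, beside 5.72% of all clusters called higher and 4.4% called lower there. In all, 16.3% and 14% of the 43 were called for G at 60 and 120 µM, 4.65% and 11.6% for K, and 18.6% and 20.9% for the mixture. Dim clusters are called less often, and many of the 43 were not well above background in any group. They were Pex11g, Pex5l, Ddo, Hao1, Hao2, Agxt, Pipox, Uox, Pxmp2, Baat, Slc27a2, Ephx2 and Acot3. The 43 and the 35 are thus not matched in brightness. Acad11, an acyl-CoA dehydrogenase, rose in all 6 conditions, 2.36-fold and 4.43-fold with 60 and 120 µM G, 1.9-fold and 2.28-fold with K and 2.6-fold and 2.8-fold with the mixtures. Nudt12, which breaks down NADH and its relatives, and Gstk1, a glutathione transferase of peroxisomes and mitochondria, rose with the mixtures, 2.51-fold and 2.71-fold and 3.13-fold and 2.73-fold at 60 and 120 µM. Nudt19, which splits coenzyme A, fell with G, to 0.617 and 0.542 of control at 60 and 120 µM (adjusted p 0.0062 and below for these 3 genes). Of 6 genes for the division that peroxisomes share with mitochondria, 1 was called, the dynamin Dnm1l at 0.754 of control with 120 µM K (adjusted p = 0.039). There 8% of all clusters were called lower.

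Of 8 genes for PPAR receptors, their RXR partners and coactivators, 1 fell with 60 µM G and 1 with 120 µM G, 1 rose with 60 µM K, 3 with 120 µM K and 2 with the 60 µM mixture, and 0 were called with the 120 µM mixture. Of all clusters, 4.48% and 7.8% fell with 60 and 120 µM G, 5.72% and 8.98% rose with K, and 9.23% rose with the 60 µM mixture. With the 120 µM mixture, 10.1% rose and 9.48% fell. Pparg, the receptor of fat cell differentiation, fell to 0.564 and 0.277 of control with 60 and 120 µM G (adjusted p = 0.0067 and 4.5e-06), while with K and the mixtures it had 0.772 to 1.07 times control without a call. Rxra, the common partner of PPARs, rose 1.55-fold and 1.82-fold with 60 and 120 µM K and 1.51-fold with the 60 µM mixture (adjusted p = 0.023, 0.0018 and 0.022), and Rxrb and Ppard rose 1.74-fold and 1.66-fold with 120 µM K. Ppargc1b, a coactivator, rose 1.78-fold with the 60 µM mixture. Ppara was not well above background in any group.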

How the data were processed

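RNA of 16 cultures of mouse MPS I fibroblasts was measured on Clariom S arrays. Per the submitters' processing notes, the authors used Affymetrix Expression Console for the scans and the Transcriptome Analysis Console, and they deposited log2 signals normalized between arrays by RMA (the column names read sst-rma). For software versions and genome build the entry is "not given in the sources used here". Array columns were matched to samples by the number in each sample's description, 0 columns had no sample, and both deposited tables differed by at most 5e-05. The tables hold 28846 probe sets, of which 6640 are controls (5222 negative) and 22206 annotated transcript clusters. RMA quantile normalization forces arrays to a common distribution, so changes are relative to the array as a whole, and summarization compresses changes of dim genes.

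The log2 signals were fitted with limma 3.58.1 in R 4.3.3 (1 mean per group over 16 arrays, eBayes, 8 residual and 5.81 prior degrees of freedom), without filter, and p-values were adjusted by Benjamini-Hochberg over all 22206 clusters at 0.05. Intervals are 95% and, with 2 arrays a group, their number limits the precision. The fit was tested on simulated data. Where 1 group was not well above background, the fold is a bound, the mean of the bright group against the per-array higher of the dim signal and the negative control median. This background rule was chosen with the data seen. Up to 16 genes have per-array values, those with the lowest adjusted p over the 6 conditions with at most 3 per role in a first pass and each role represented. Other lists name up to 4 genes by lowest adjusted p, plus Ppara, Ppard, Pparg and Idua; Acaa1b and Cd68 were named after their values were seen. The genes and lists were chosen with earlier results of these data known. Promoter windows were taken from RefSeq (GRCm38.p6; 32851 promoters of 27025 genes). Alternatives covered the control, the normalization, the prior, the signal filter, the arrays in the fit, the replicate block, the table, a fold criterion (above 1.3 or below 0.7) and each array left out. Figures were drawn with matplotlib 3.10.9 under Python 3.11.15.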

Additional observations from a re-analysis of the deposited data

How the results depend on the processing

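No call of a peroxisomal gene changed direction under any alternative. The series matrix table and the lowest transcript cluster of a symbol kept all 72 calls, 45 against DMSO and 27 between treated groups. These settings are no test of the calls. The values of both deposited tables differed by at most 5e-05, and no gene of the set had several transcript clusters to choose from. Equal array medians kept 71, a repeated quantile normalization 63, a prior with trend and robust fitting 65, and a fit of the compared arrays alone 35. The repeated quantile normalization ended the calls of Pex7 with 60 µM K and the 60 µM mixture, of Acaa1a with 60 and 120 µM K and the 120 µM mixture, of Pex13 with 120 µM K against DMSO and against G, of Crot with the 60 µM mixture, and of Acox2 with the 60 µM mixture against 60 µM G, and the last was also lost with equal medians and with the trended prior. Some settings, such as the fit of the compared arrays alone, also leave fewer arrays or genes, and no cause of these changes was tested.

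With the other DMSO group as control the counts were 0 with 60 µM G, 9 with 120 µM G, 6 with the 60 µM mixture and 7 with the 120 µM mixture, and with both DMSO groups pooled 13 with 120 µM K. The trended prior gave 8 with 120 µM G. With 60 µM K, where the main fit called 0 lower, the other or the pooled DMSO control gave 8 higher and 1 lower. A repeated quantile normalization gave 6 and 2 there, and clusters above the median signal alone 8 and 2. With 120 µM K, the trended prior, the repeated quantile normalization and those clusters alone each gave 1 lower. Clusters above the median signal alone gave 5 with 60 µM G, 9 with 120 µM G, 11 with 120 µM K, 2 between 120 and 60 µM G and 3 for the 60 µM mixture against 60 µM G. Only the compared arrays gave, at 60 and 120 µM, 0 and 3 for G, 5 and 3 for K, 5 and 4 for the mixture, 4 for K against G at 120 µM and 3 for the mixture against G at 60 µM. The fold criterion alone gave 7 and 9 for G at 60 and 120 µM, 15 for 120 µM K, 5 between 120 and 60 µM G, 14 for K and 10 for the mixture against G at 120 µM, 2 and 2 for the mixture against K at 60 and 120 µM, 1 between the mixtures and 1 between the DMSO groups.

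Without 1 array the counts ranged from 0 to 3 with 60 µM G, 3 to 6 with 120 µM G, 1 to 8 with 60 µM K, 3 to 9 with 120 µM K, 4 to 11 with the 60 µM mixture, 4 to 12 with the 120 µM mixture, 1 to 6 and 4 to 9 for K against G, and 1 to 5 and 2 to 6 for the mixture against G at 60 and 120 µM. They stayed at 0 for the concentration steps, the mixture against K and the DMSO groups.

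The labels number replicates alike in all groups without saying that a number marks a shared culture, and same-numbered arrays did not deviate together (correlations −0.136 to 0.142, median 0.014, 28 pairs, 1 over 0.1). With the replicate block the counts at 60 and 120 µM were 3 and 6 for G, 6 and 7 for K, 10 and 11 for the mixture, 5 and 9 for K against G and 5 and 6 for the mixture against G, and 67 of the 72 calls stood.

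Precision is limited by 2 arrays a group. Of the 35 genes, 4 were not well above background in any group and 5 in some, and their changes are the least certain.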

Other observations

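Among 15 genes that PPARs control outside the peroxisome, 2 rose and 1 fell with 60 µM G and 3 and 1 with 120 µM G (all clusters 3.84% and 4.48%, then 7.94% and 7.8%). With K, 3 and 1 were called at 60 µM and 4 and 1 at 120 µM (all clusters 5.72% and 4.4%, then 8.98% and 8%). Each mixture gave 3 and 2 (all clusters 9.23% and 8.57% at 60 µM, 10.1% and 9.48% at 120 µM). The other control and leaving out 1 array were not tried for these lists. Pdk4, the kinase that shuts pyruvate dehydrogenase, rose 2.51-fold and 2.25-fold with 60 and 120 µM G, 4.97-fold and 4.58-fold with K and 4.4-fold and 4.38-fold with the mixtures. Angptl4, a secreted lipase inhibitor, rose 1.95-fold with 120 µM G, 3.49-fold and 2.59-fold with 60 and 120 µM K and 5.39-fold and 3.62-fold with the mixtures, and Plin2, the lipid droplet coat protein, rose 1.4-fold to 2.31-fold in all 6 conditions. Fabp4, a fatty acid carrier of adipocytes and macrophages, fell in all 6, to 0.43 and 0.142 of control with 60 and 120 µM G, 0.443 and 0.216 with K and 0.274 and 0.177 with the mixtures. Cd36, Cpt1b, Fabp1, Cyp4a10, Cyp4a14 and Ucp3 of this list were not well above background in any group.

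Of 15 genes of mitochondrial beta-oxidation, 1 rose with each concentration of G and with 60 µM K, 1 rose and 1 fell with 120 µM K, and 2 rose and 1 fell with each mixture. Among all clusters, from 3.84% with 60 µM G to 10.1% with the 120 µM mixture were called higher. In a list of 15, counts this small lie near those shares. Echs1, the enoyl-CoA hydratase, rose 1.48-fold and 1.56-fold with 60 and 120 µM K and 1.77-fold and 1.86-fold with the mixtures. Acadvl, the dehydrogenase for very long chains, rose 1.6-fold and 2.05-fold with 60 and 120 µM G, and Acadm, that for medium chains, rose 1.48-fold and 1.78-fold with the 60 and 120 µM mixtures, which also lowered Etfb (adjusted p = 0.03 and 0.027), an electron carrier subunit.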
